A study of Homo sapiens with 11 samples.

Results

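DNA repair genes, with BCCIP among them, were followed across a culture of RT4 cells on Matrigel. RT4 is an established cell line from a human bladder papilloma, and Matrigel, which the study calls cancer-remodeled extracellular matrix, is a protein gel derived from a mouse tumor. Cells first grown on plastic were layered in serum-containing McCoys medium on set gels in culture inserts, released with Matrisperse at each time point and measured on 1-color (Cy3) arrays of spotted long oligonucleotides. The 9 Matrigel arrays came from 12 h (day 0.5) and days 1, 2, 3, 4, 6, 7, 8 and 9, with 1 array for each time, and were set against 2 arrays from RT4 cells grown on plastic. All cells were of this 1 line, and no DNA-damaging agent is named in the labels. How long the plastic cultures were kept is not stated in the sources used here, nor is whether the 2 plastic arrays came from separate cultures. P-values therefore measure only the spread between these arrays, and against plastic the 9 Matrigel time points were taken as 1 group.

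Members were taken by gene symbol from the annotation of the probes: symbols that begin with ERCC, XRCC, RAD, MSH or MLH and a digit, or with FANC, together with BRCA1, PALB2, ATM, ATR, CHEK1, CHEK2, XPA, XPC, PMS1, PMS2, MGMT, OGG1 and BCCIP. In all 58 genes with 64 probes were found among the 14941 gene symbols and 22464 probes, and 6 of these genes had more than 1 probe. Where a gene had several, the probe with the highest mean was used. The choice by letters also brought in ERCC6L, a helicase of dividing chromosomes, ERCC6L2, the cohesin subunit RAD21, the pseudogene RAD52P1 and FANCD2OS, which lies opposite FANCD2 and is not known as a repair gene.

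Cells repair DNA by several routes. Mismatch repair corrects copying errors, base and nucleotide excision remove damaged bases and bulky lesions, end joining seals broken ends, and homologous recombination copies the lost sequence from a sister chromatid. Fanconi proteins open crosslinked strands for that last route, and checkpoint proteins halt the cycle meanwhile. BCCIP was named for binding both BRCA2 and the cell cycle inhibitor CDKN1A. It acts in recombination with BRCA2 and is also needed for ribosome assembly.

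The deposited level of a probe is the log10 of its distance above the zero point of its array, counted in standard deviations (SDs) of the noise around that zero. Levels below are given as noise SDs after a regression that brought the arrays to a common scale. They are therefore not SDs of each array's own noise. Rebuilt from the raw intensities without regression, BCCIP was 9.85 SD at 12 h and 8.99 and 9.32 SD on plastic. Its deposited levels were 29.7, 39.6 and 47.8 SD. For BRCA1, at 11.4 and 10.4 SD deposited on plastic, 0 rebuilt plastic levels passed 3 SD. The study counts a gene as expressed above 3 SD, a limit its methods set before the regression. Levels of different probes are not comparable with each other, and in bulk RNA fewer cells that use a gene cannot be told apart from less of its RNA per cell. In the deposited levels, between 47 and 50 of the 58 members lay above 3 SD on each Matrigel array, against 50 and 52 on the plastic arrays. Over all probes 83.9% to 86.6% lay above it on each Matrigel array, against 86.4% and 85.2% on plastic. On all 11 arrays 42 of the 58 members were above it, against 16188 of all 22464 probes, and 2 members were on none. These counts were made after the regression, so they are not counts at the limit of the study, and they follow the share over all probes. The 2 plastic arrays differed by a median of 0.13 on the log2 scale over the members, and by 0.72 at most.

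BCCIP, measured by the single probe 004003021022, climbed through the Matrigel series. Its level was 29.7 SD at 12 h, 42.8 on day 1, 47.8 on day 2, 52.2 on day 3, 51.1 on day 4, 64.9 on day 6, 70.0 on day 7, 73.0 on day 8 and 71.2 on day 9. On plastic it was 39.6 and 47.8 SD. The level went up in 6 of the 8 steps between neighboring times, and every array of days 6 to 9 lay above every array of 12 h to day 4. Day 9 stood 2.40-fold above 12 h, and the median of days 6 to 9 was 1.48-fold that of 12 h to day 4. On the log2 scale the slope was 0.29 per doubling of the day (SE 0.02, 9 arrays). BCCIP was chosen by this trend, so the slope is a description and carries no test here.

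**Figure D1:**
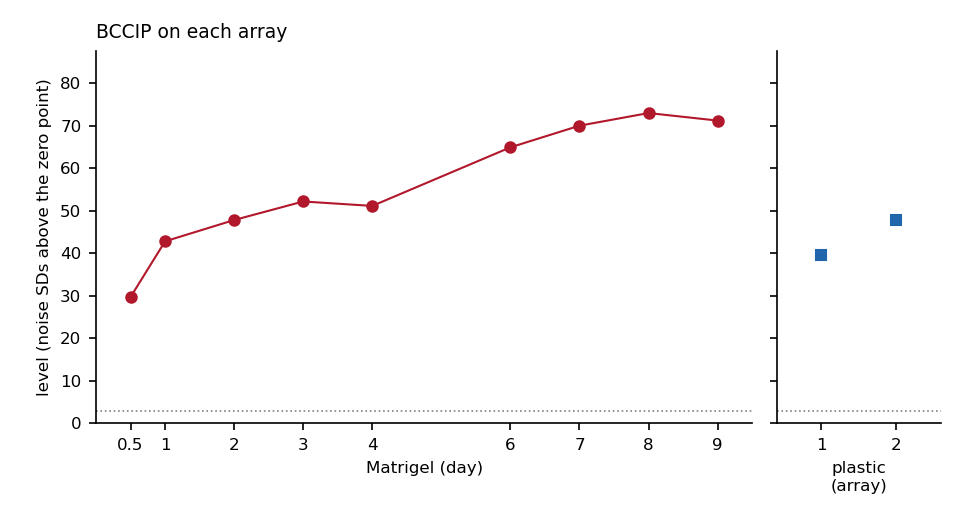
BCCIP level on each array in noise SDs above the zero point (y axis), with the 9 Matrigel arrays by day on the left and the 2 plastic arrays on the right, each point 1 array and the dotted line the 3 SD limit. The Matrigel level starts at 29.7 SD, under both plastic arrays (39.6 and 47.8 SD), and reaches 64.9 to 73.0 SD on days 6 to 9.

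The plastic level fell inside the range of the Matrigel series. The 12 h array was below both plastic arrays and 7 Matrigel arrays were above both. The mean difference, Matrigel minus plastic, was 0.31 on the log2 scale (SE 0.29, limma, adjusted p = 0.408 over 21480 probes). The Matrigel time points served as the spread of their group, so this SE holds the climb of BCCIP over day. Without the 12 h array the difference was 0.42 (SE 0.21, limma, adjusted p = 0.118). In the raw intensities divided by the median of their array, BCCIP ran 1.25, 1.54, 1.69, 1.80, 1.75, 2.32, 3.14, 2.54 and 2.28 from 12 h to day 9, against 2.37 and 3.25 on plastic. Days 6 to 9 again all lay above 12 h to day 4, but on this raw scale only days 7 and 8 lay above the lower plastic array and no day above the higher one.

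BCCIP overlaps DHX32, a helicase gene on the opposite strand, and lies beside UROS, an enzyme of heme synthesis. DHX32 measured between 41.5 and 54.2 SD on Matrigel, against 31.7 and 32.8 SD on plastic, a difference of 0.54 (SE 0.10, limma, adjusted p = 0.00109). Its slope was 0.07 per doubling of the day (SE 0.02, limma, adjusted p = 0.498). Both UROS probes had slopes of -0.05. Of 4 partners of BCCIP searched for, EIF6, which works with BCCIP on ribosomes, and CDKN1A were found. EIF6 had a slope of -0.17 (limma, adjusted p = 0.796) and CDKN1A one of 0.09 (limma, adjusted p = 0.796).

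Whether other repair genes rose with day was tested by a slope over log2 of the day on the 9 Matrigel arrays, fitted to all probes above 3 SD on at least 2 arrays, with values under 3 SD set to 3 SD. Of the 58 members 54 passed this filter. The 4 left out were the damage kinase ATR, under 3 SD on all arrays, RAD51AP1, also under 3 SD on all arrays, RAD21, above it only on 1 plastic array with 6.53 SD, and RAD52P1, above it only on 1 plastic array with 6.72 SD.

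None of the 53 other members tested passed an adjusted p of 0.05. Their lowest adjusted p was 0.455 in limma, and 4 had an unadjusted p under 0.05. Over all probes 0.00466% were called, which is BCCIP itself. As BCCIP was chosen by this trend, its call is no test result. Of the 53 slopes 24 were above 0, 26 below and 3 were 0, those of PMS2, RAD23B and RAD9A, which lay under 3 SD on every Matrigel array. An unadjusted p under 0.05 was reached by 3.31% of all probes with a rising slope and by 5.16% with a falling one, while of the 53 members 0 reached it with a rising slope and 4 with a falling one. No other member had all of days 6 to 9 above all of 12 h to day 4, as 0.689% of all probes did, and none had them all below, as 0.656% did. BCCIP had the highest slope of the 54 members, and 280 of the 21480 probes had a higher one.

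**Figure D2:**
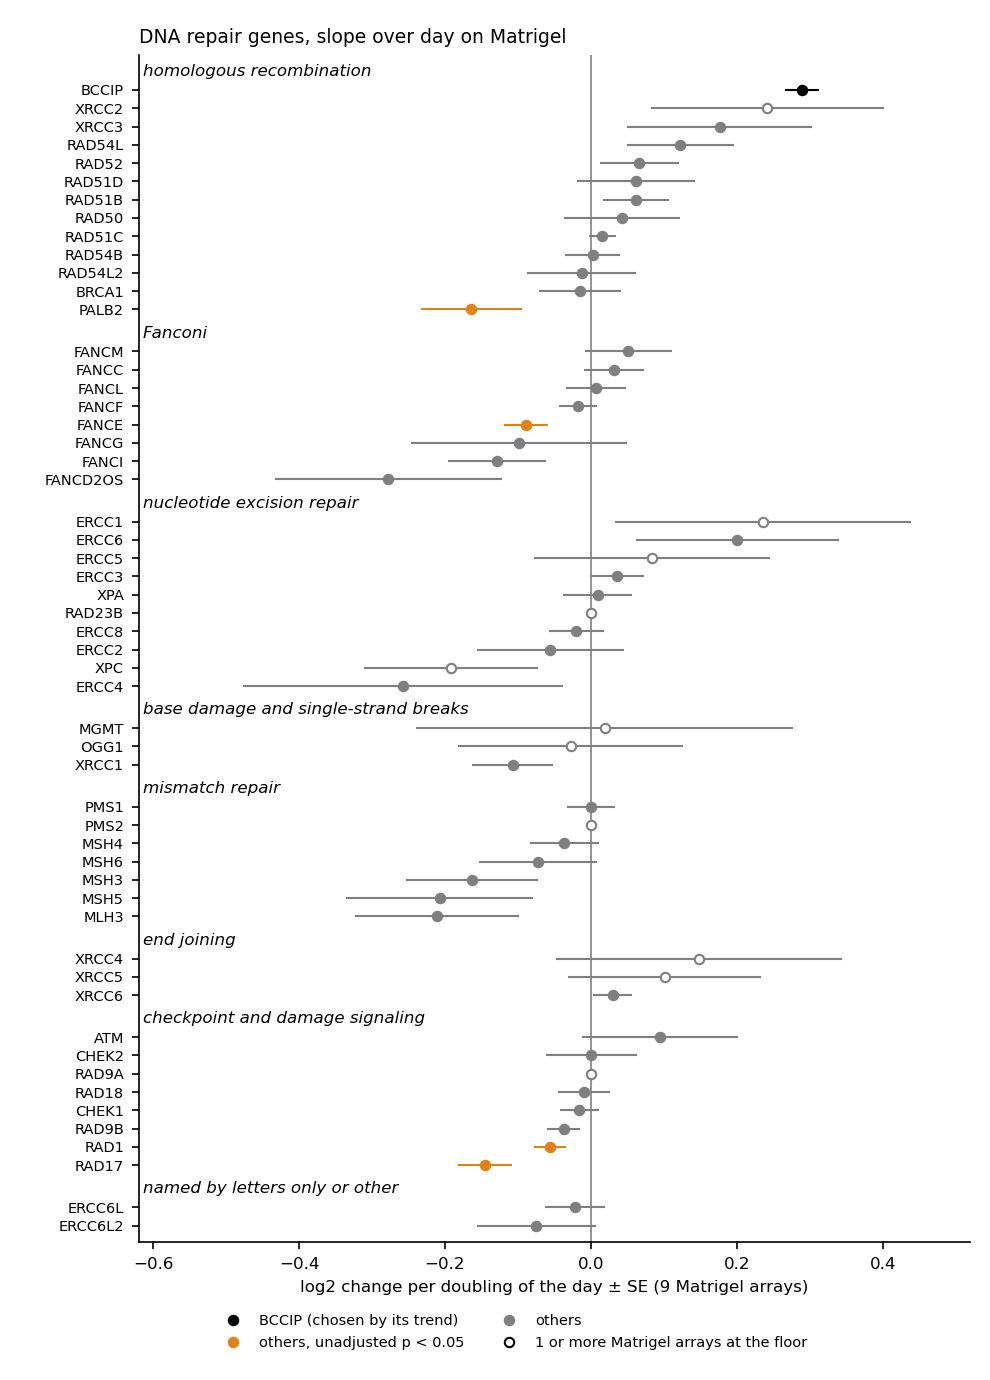
Slope of the log2 level per doubling of the day over the 9 Matrigel arrays (x axis, point ± SE) for the 54 members tested, grouped by role, with open points where at least 1 Matrigel array was at the 3 SD floor. BCCIP (black) lies at 0.29 with a short error bar, the 4 other members with an unadjusted p under 0.05 (orange) all lie below 0, and the other members lie on both sides of 0.

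The 4 members other than BCCIP with an unadjusted p under 0.05 all had slopes below 0, and none passed after adjustment. RAD17 loads the ring-shaped checkpoint clamp onto damaged DNA. Its level was 74.5, 77.0, 58.3, 52.7, 51.2, 51.1, 54.9, 60.7 and 45.0 SD from 12 h to day 9, against 25.3 and 23.0 SD on plastic, with a slope of -0.15 (SE 0.04, limma, adjusted p = 0.455). The early arrays were thus the highest, and all 9 stood above plastic. PALB2, which links BRCA1 to BRCA2, measured 66.2, 46.1, 33.7, 29.9, 46.0, 47.7, 34.6, 35.1 and 32.5 SD over the same times, against 22.0 and 21.9 SD on plastic, with a slope of -0.16 (SE 0.07, limma, adjusted p = 0.575). FANCE, a subunit of the Fanconi core complex, measured 32.0, 29.5, 26.6, 24.5, 21.6, 24.7, 23.8, 26.5 and 24.7 SD, against 19.3 and 14.9 SD on plastic, with a slope of -0.09 (SE 0.03, limma, adjusted p = 0.498). RAD1, a part of the clamp that RAD17 loads, had 52.3 SD at 12 h and between 39.9 and 45.3 SD afterwards, against 48.2 and 46.5 SD on plastic, with a slope of -0.06 (SE 0.02, limma, adjusted p = 0.536). Without the 12 h array the slopes were -0.06 for PALB2, -0.06 for FANCE and -0.01 for RAD1, while that of RAD17 was still -0.15.

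The next highest slopes after that of BCCIP belonged to XRCC2 (0.24, SE 0.16), ERCC1 (0.24, SE 0.20), ERCC6 (0.20, SE 0.14) and XRCC3 (0.18, SE 0.13). XRCC2 and XRCC3 act in homologous recombination, ERCC1 is a subunit of an excision nuclease, and ERCC6 couples repair to transcription. Their courses did not climb in steps as that of BCCIP did. XRCC2 dropped to 1.14 SD on day 1 and stayed between 10.4 and 16.3 SD on the other Matrigel arrays. ERCC1 swung between 0.699 SD on day 1 and 15.9 SD on day 3, with 6.95 SD on day 9. ERCC6 and XRCC3 started low at 12 h, with 9.31 and 7.01 SD, peaked on day 4 at 35.8 and 29.1 SD, and ended at 21.6 and 21.1 SD. Without the 12 h array the slopes of ERCC6 and XRCC3 were -0.06 and -0.08, and those of ERCC1 and XRCC2 were 0.40 and 0.47. Without the day 1 array they were 0.097 for ERCC1, 0.037 for XRCC2 and 0.31 for ERCC6.

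The lowest slopes were those of FANCD2OS (-0.28, SE 0.16), ERCC4 (-0.26, SE 0.22), MLH3 (-0.21, SE 0.11), MSH5 (-0.21, SE 0.13) and XPC (-0.19, SE 0.12), and none passed the test. FANCD2OS had 38.0 SD at 12 h and between 5.11 and 18.4 SD afterwards. ERCC4, the partner of ERCC1 in the nuclease, held between 31.9 and 43.4 SD on 7 arrays but had 15.6 SD on day 3 and 5.96 SD on day 9. XPC, the sensor of bulky lesions, had 8.80 SD at 12 h and 5.47 SD on day 7 and was under 3 SD on the other 7, and without the 12 h array its slope was 0.08. Single arrays also set other slopes, which were -0.033 for FANCD2OS without 12 h, -0.034 for ERCC4 without day 9, and for MLH3 -0.14 without 12 h and -0.11 without day 8. By role, 5 of 7 mismatch repair genes had slopes below 0 (median -0.07) and 10 of 13 homologous recombination genes, BCCIP among them, had slopes above 0 (median 0.06), while over all probes 10384 slopes were above 0 and 9799 below.

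**Figure D3:**
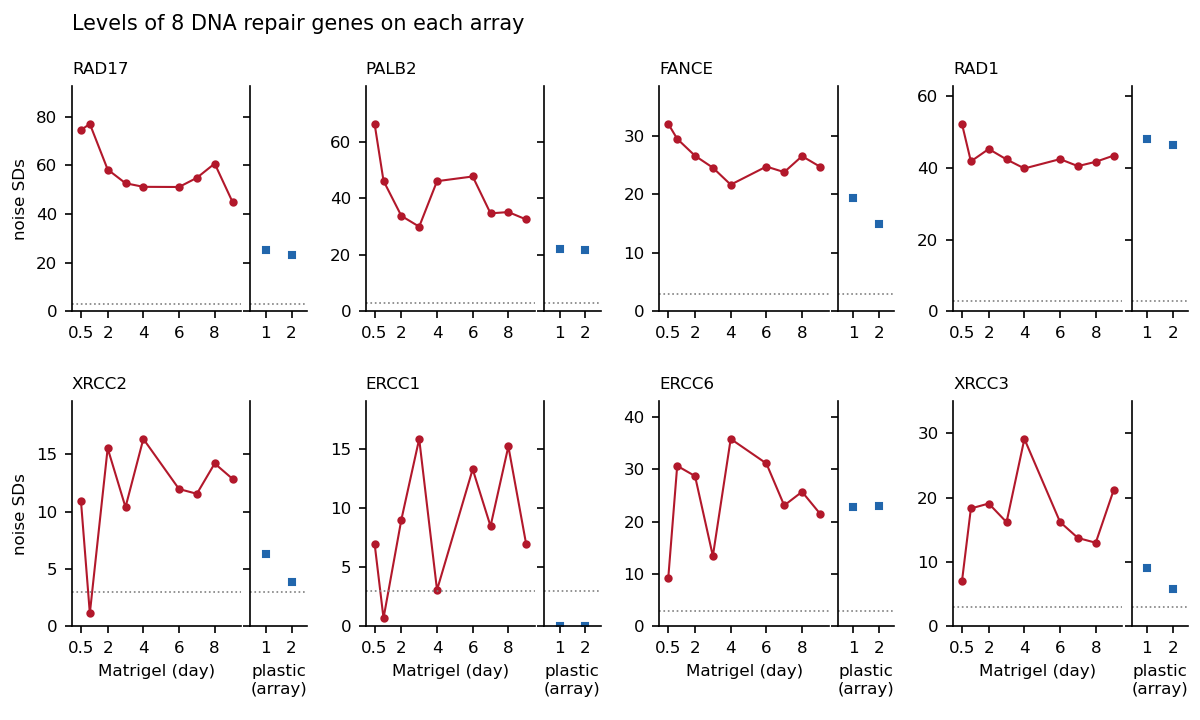
Levels of 8 members in noise SDs (y axis, from 0) on each Matrigel array by day (red, left of each pair of panels) and on the 2 plastic arrays (blue, right), with the dotted line at 3 SD. The top row holds the 4 members other than BCCIP with an unadjusted trend p under 0.05, among which RAD17 has 74.5 SD at 12 h and 45.0 SD on day 9, and the bottom row the 4 highest slopes after BCCIP, among which XRCC2 has 1.14 SD on day 1.

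RAD17, PALB2 and FANCE were above both plastic arrays at every time and lowest in the middle or at the end of the series, so the 250 bases before their transcription starts are shown for comparison. They are from RefSeq (GRCh38.p14), in whose promoter set 51 of the 58 members were matched, and BCCIP was not. Capitals mark motifs found on either strand. RAD17 is read from chr5:69369568-69369817 (plus strand), PALB2 from chr16:23641311-23641560 (minus strand) and FANCE from chr6:35452088-35452337 (plus strand).
RAD17: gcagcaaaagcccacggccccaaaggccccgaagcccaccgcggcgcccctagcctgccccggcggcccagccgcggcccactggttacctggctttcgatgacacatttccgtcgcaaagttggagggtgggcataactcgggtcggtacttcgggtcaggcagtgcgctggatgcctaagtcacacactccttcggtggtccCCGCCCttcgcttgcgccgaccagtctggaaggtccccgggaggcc
PALB2: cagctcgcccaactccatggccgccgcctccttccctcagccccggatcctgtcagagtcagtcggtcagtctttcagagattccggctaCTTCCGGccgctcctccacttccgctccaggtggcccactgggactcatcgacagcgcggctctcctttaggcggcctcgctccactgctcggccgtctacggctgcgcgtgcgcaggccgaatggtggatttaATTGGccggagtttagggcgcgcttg
FANCE: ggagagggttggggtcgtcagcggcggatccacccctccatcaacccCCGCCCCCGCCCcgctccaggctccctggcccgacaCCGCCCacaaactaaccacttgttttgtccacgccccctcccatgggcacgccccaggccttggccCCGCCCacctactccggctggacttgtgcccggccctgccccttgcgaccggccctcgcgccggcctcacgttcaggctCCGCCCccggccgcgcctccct

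The motifs searched on both strands were the GC box (GGGCGG), the CCAAT box (CCAAT), the ETS core (CCGGAAG), E2F (TTTCCCGC or TTTGGCGC) and the cAMP response element (TGACGTCA), and no marked match overlapped another. RAD17 held a GC box 46 bases before the start, PALB2 an ETS core 160 bases and a CCAAT box 26 bases before it, and FANCE 5 GC boxes between 203 and 22 bases before it. No motif was common to the 3 promoters. A GC box was found in 35 of the 51 member promoters (68.6%), against 42.6% of all 35116 promoters of this length. For CCAAT it was 24 of 51 (47.1%) against 32.0%, for the ETS core 9 of 51 (17.6%) against 8.52%, and for E2F 3 of 51 (5.88%) against 1.93%. The cAMP response element was in 2 of 51 (3.92%) against 1.65%. These are matches of letters in a window and not sites of binding.

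Between Matrigel and plastic, 11 of the 54 members were higher, 9 were lower and 34 did not pass the test (limma, Matrigel minus plastic, adjusted p under 0.05 over 21480 probes). Of all probes 22.8% were higher and 22.4% lower, so the counts of the members were not above the background. The median change was 0.07 on the log2 scale over the members and 0.06 over all probes. No member met the off-on criterion of the study, a mean log10 level below 0 on plastic and above 1 on Matrigel, or its reverse. In the raw intensities the plastic arrays stood apart, with array medians from 224 to 482 on Matrigel, against 162 and 140.45 on plastic. The slope of the deposited log10 levels on the raw log10 intensities was between 1.01 and 1.44 on Matrigel, against 0.71 and 0.69 on plastic. Handling of the arrays and growth surface cannot be told apart.

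**Figure D4:**
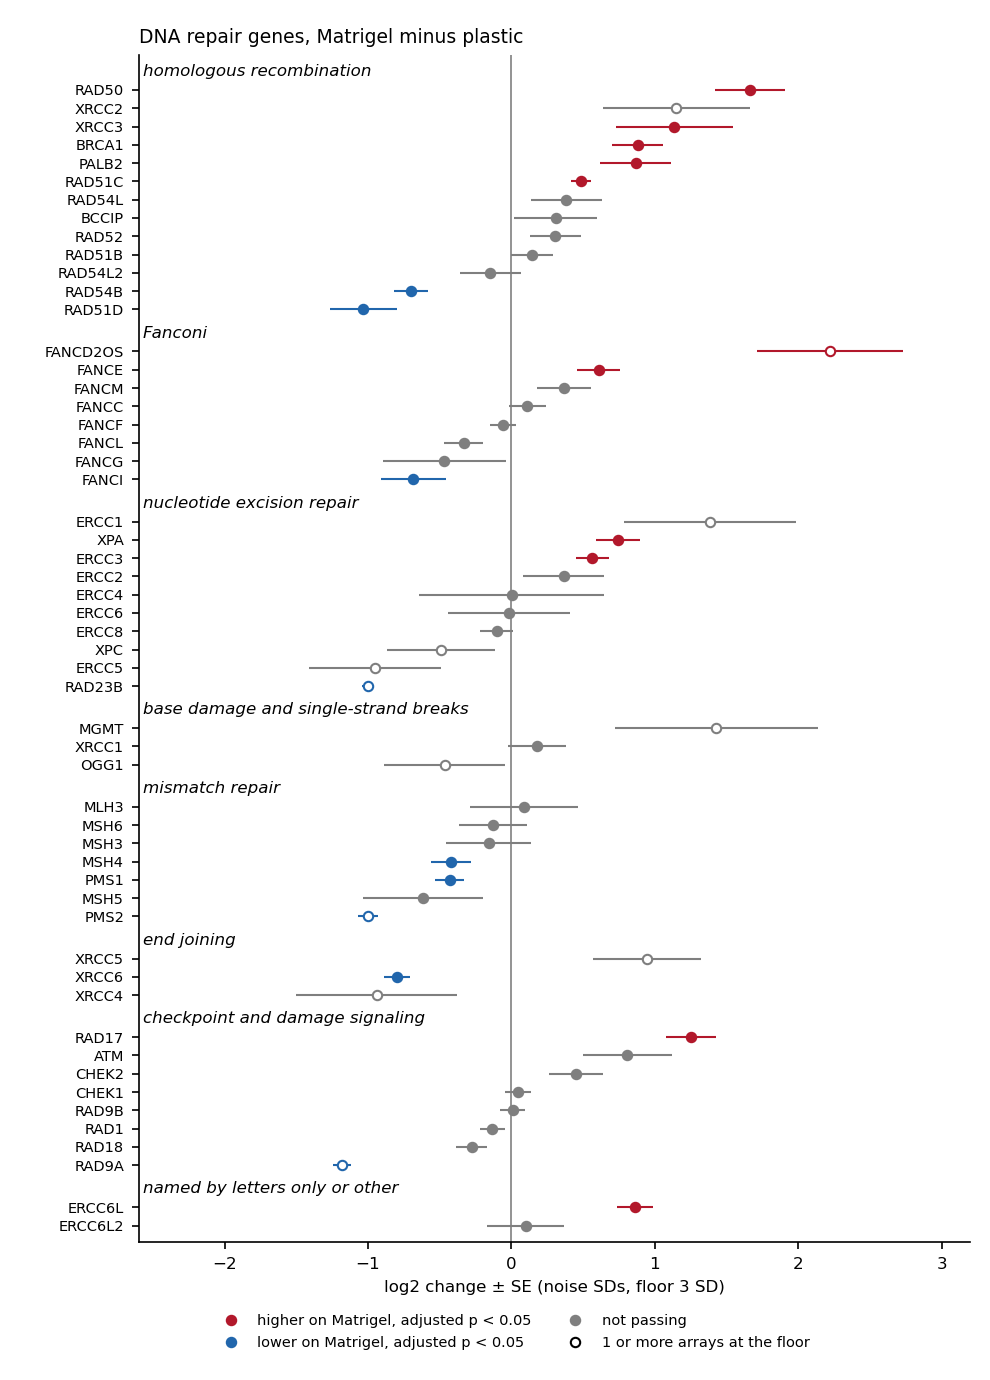
Log2 change, Matrigel minus plastic (x axis, point ± SE, 9 against 2 arrays), of the 54 members tested, grouped by role and colored by the call at an adjusted p of 0.05, with open points where at least 1 array was at the 3 SD floor. Homologous recombination holds 5 of the 11 members called higher, mismatch repair holds 3 of the 9 called lower and none called higher. Of all probes 22.8% were called higher and 22.4% lower, and no role was tested against these shares.

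The counts by role that follow stand beside 22.8% higher and 22.4% lower over all probes, and no role was tested against these shares. Homologous recombination had 5 of 13 members tested higher and 2 lower, with a median change of 0.38. RAD50, a subunit of the complex that holds and trims broken ends, had the largest increase among members above 3 SD on all arrays in the deposited levels. Before the regression 0 of its rebuilt plastic levels passed 3 SD, and after quantile normalization its change was 0.88. In the deposited levels RAD50 lay between 16.1 and 33.8 SD on Matrigel (median 22.9), against 6.45 and 7.45 SD on plastic, 3.17-fold higher (log2 change 1.66, SE 0.24, adjusted p = 0.000213). XRCC3 ranged from 7.01 to 29.1 SD on Matrigel (median 16.2), against 9.13 and 5.83 SD on plastic, 2.20-fold higher (1.14, SE 0.41, adjusted p = 0.0416), with the 12 h array between the plastic arrays. After quantile normalization it did not pass (0.52, adjusted p = 0.268). BRCA1, the scaffold that recruits PALB2, lay between 14.9 and 25.9 SD on Matrigel (median 20.2), against 11.4 and 10.4 SD on plastic, 1.84-fold higher (0.88, SE 0.18, adjusted p = 0.00201), but after quantile normalization of the raw intensities its change was 0.31 and did not pass (adjusted p = 0.12). PALB2, whose values are given above, was 1.83-fold higher (0.87, SE 0.25, adjusted p = 0.0143). RAD51C, which acts in homologous recombination, was 1.40-fold higher (0.49, SE 0.07, adjusted p = 0.000237), at 40.5 to 46.2 SD on Matrigel and 32.3 and 29.1 SD on plastic.

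Other recombination genes were lower on Matrigel. RAD51D lay between 15.1 and 29.0 SD on Matrigel (median 21.2), against 40.6 and 44.8 SD on plastic, 2.04-fold lower (-1.03, SE 0.23, adjusted p = 0.00397). RAD54B, a motor protein of recombination, lay between 21.8 and 29.7 SD on Matrigel, against 39.7 and 47.9 SD on plastic, 1.62-fold lower (-0.70, SE 0.12, adjusted p = 0.0007). Every Matrigel array of both genes was below both plastic arrays. The related RAD54L did not pass (0.38, SE 0.25, adjusted p = 0.23), nor did RAD51B (0.14, SE 0.14), RAD52 (0.31, SE 0.18), RAD54L2 (-0.15, SE 0.21) or XRCC2 (1.15, SE 0.52, adjusted p = 0.0902).

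Mismatch repair had none of 7 members higher and 3 lower, with a median change of -0.42. PMS1, a mismatch repair protein, lay between 31.1 and 41.3 SD on Matrigel (median 38.1), against 51.2 and 48.3 SD on plastic (-0.43, SE 0.10, adjusted p = 0.00475). MSH4, which acts in meiotic crossing over, lay between 24.8 and 40.4 SD on Matrigel (median 33.2), against 44.1 and 44.3 SD on plastic (-0.42, SE 0.14, adjusted p = 0.0287), and did not pass after quantile normalization (-0.28, adjusted p = 0.117). PMS2, a nuclease subunit of mismatch repair, was under 3 SD on all 9 Matrigel arrays, against 6.72 and 5.35 SD on plastic. MSH3 and MSH6, which find mismatches, did not pass (-0.16, SE 0.30, and -0.13, SE 0.24). The same held for MSH5, the partner of MSH4 (-0.62, SE 0.42), and MLH3, which acts in mismatch repair and meiosis (0.09, SE 0.38).

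Among nucleotide excision repair genes 2 of 10 were higher and 1 lower. XPA, which checks the damaged strand, lay between 43.5 and 66.3 SD on Matrigel (median 57.8), against 39.5 and 28.7 SD on plastic, 1.67-fold higher (0.74, SE 0.15, adjusted p = 0.00235). ERCC3, a helicase of the factor TFIIH, lay between 31.6 and 44.8 SD on Matrigel (median 35.5), against 23.1 and 24.9 SD on plastic, 1.48-fold higher (0.56, SE 0.11, adjusted p = 0.00209). Its companion helicase ERCC2 did not pass (0.36, SE 0.29, adjusted p = 0.323). RAD23B, the partner of the damage sensor XPC, was under 3 SD on all 9 Matrigel arrays, against 5.97 and 6.04 SD on plastic. ERCC1 was near 0 on both plastic arrays and above 3 SD on 8 Matrigel arrays, and did not pass (1.39, SE 0.60, adjusted p = 0.0806). The nucleases ERCC4 (0.00, SE 0.65) and ERCC5 (-0.95, SE 0.46), the transcription-coupled factors ERCC6 (-0.02, SE 0.43) and ERCC8 (-0.10, SE 0.12), and XPC (-0.49, SE 0.37) did not pass either.

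Of 8 Fanconi-named genes 2 were higher and 1 lower. FANCD2OS lay between 5.11 and 38.0 SD on Matrigel (median 13.9), against 1.49 and 2.83 SD on plastic, so that in the deposited values it was at least 4.67-fold higher against the 3 SD floor (2.22, SE 0.51, adjusted p = 0.00432). Its change was 1.49 with a floor of 5 SD and 1.03 in values rebuilt from the raw intensities, and after quantile normalization it did not pass (1.03, adjusted p = 0.0697). FANCE was 1.53-fold higher (0.61, SE 0.15, adjusted p = 0.0062). FANCI, which forms a clamp with FANCD2, lay between 14.3 and 28.1 SD on Matrigel (median 19.3), against 32.5 and 33.6 SD on plastic, 1.61-fold lower (-0.68, SE 0.23, adjusted p = 0.0288), and did not pass in values rebuilt from the raw intensities (-0.40, adjusted p = 0.135) or with array weights (-0.68, adjusted p = 0.0927). The other 5, FANCC, FANCF, FANCG, FANCL and FANCM, had changes between -0.47 and 0.37 and did not pass.

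Of 8 checkpoint genes 1 was higher and 1 lower. RAD17 was 2.38-fold higher on Matrigel (1.25, SE 0.18, adjusted p = 0.000175). RAD9A, another part of the clamp, was under 3 SD on all 9 Matrigel arrays, against 6.20 and 7.45 SD on plastic, in the deposited values. For RAD9A, RAD23B and PMS2 the whole Matrigel group sat at the floor and had no spread, so their adjusted p-values (limma, 3.2e-08, 5.65e-09 and 3.9e-07) rest on the 2 plastic arrays. The damage kinases did not pass, with 0.81 (SE 0.31, adjusted p = 0.0531) for ATM, 0.45 (SE 0.19, adjusted p = 0.0693) for CHEK2 and 0.04 (SE 0.09, adjusted p = 0.714) for CHEK1. CHEK1 was nearly level over all arrays, at 24.3 to 30.8 SD on Matrigel and 26.3 and 28.4 SD on plastic. RAD1 (-0.13, SE 0.09), RAD9B (0.01, SE 0.09) and RAD18, a ubiquitin ligase for stalled forks (-0.28, SE 0.11, adjusted p = 0.0575), did not pass.

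Of 3 end joining genes XRCC6, a subunit of the Ku ring that caps broken ends, was lower. It lay between 21.8 and 27.3 SD on Matrigel (median 25.0), against 40.9 and 45.6 SD on plastic, 1.74-fold lower (-0.80, SE 0.09, adjusted p = 4.12e-05). XRCC5, the other Ku subunit, went the other way without passing (0.95, SE 0.38, adjusted p = 0.0609), being near 0 on plastic and at most 8.13 SD on Matrigel. XRCC4, which holds the ligase of this route, did not pass (-0.94, SE 0.56). None of the 3 genes for damaged bases and single-strand breaks passed, with -0.46 (SE 0.42) for the glycosylase OGG1, 1.43 (SE 0.71, with both plastic arrays and 2 Matrigel arrays at the floor) for the methyltransferase MGMT and 0.18 (SE 0.20) for the scaffold XRCC1. ERCC6L was 1.82-fold higher (0.86, SE 0.12, adjusted p = 0.000198), at 30.8 to 42.8 SD on Matrigel and 20.6 and 19.3 SD on plastic, while ERCC6L2 did not pass (0.10, SE 0.27).

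Probes of the same gene did not always give the same answer. RAD9B, a paralog of RAD9A, had a change of 0.01 (SE 0.09) on the probe used and of 1.46 (SE 0.26, limma, adjusted p = 0.000905) on its dimmer probe. The dimmer ATM probe had a change of -0.67 (SE 0.59, limma, adjusted p = 0.384), opposite in sign to the 0.81 of the probe used. The second probes of XPA (1.35, SE 0.50, limma, adjusted p = 0.0467) and XRCC6 (-0.94, SE 0.06) changed in the direction of the first. That of XRCC6 was under 3 SD on all 9 Matrigel arrays, against 6.23 and 5.31 SD on plastic, so its SE holds no Matrigel spread. Its raw intensities were 41.6 to 104 on Matrigel and 20.1 and 30.8 on plastic, and so not lower on Matrigel. The second FANCC probe did not pass (1.11, SE 0.57, limma, adjusted p = 0.134), nor did the first (0.11, SE 0.13). The second XRCC5 probe was too low to be tested, being under 3 SD on all 9 Matrigel arrays, against 1.33 and 6.51 SD on plastic, while the first was near 0 on plastic.

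Of 71 other repair genes on the array 69 were tested, with 19 higher and 12 lower on Matrigel and a median change of 0.07. Over all probes 22.8% were higher and 22.4% lower, with a median of 0.06. The largest increases were those of SLX4, a scaffold for nucleases (2.52, SE 0.17), and ALKBH3, a dealkylating enzyme (1.90, SE 0.35, with both plastic arrays at the floor). The largest decreases were those of UBE2N, a ubiquitin-conjugating enzyme (-1.47, SE 0.34, with 6 Matrigel arrays at the floor), and the helicase WRN (-1.24, SE 0.05, with all 9 at the floor). No gene of this list passed an adjusted p of 0.05 for the slope over day, and the 2 with an unadjusted p under 0.05 had slopes below 0.

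Many repair proteins also serve at replication forks, so levels of proliferation markers are given beside the members. Of 20 proliferation markers tested 1 was higher and 6 were lower on Matrigel, against 22.8% and 22.4% of all probes. CDK1, the kinase that drives mitosis, changed by -1.26 (SE 0.36, limma, adjusted p = 0.0139) and the replication helicase subunit MCM3 by -0.95 (SE 0.11, with all 9 Matrigel arrays at the floor), while BIRC5, a mitotic regulator, changed by 0.76 (SE 0.11). The summed level of the 21 markers on the array lay between 395 and 526 SD on Matrigel, against 530.4 and 548 SD on plastic, and 17 were above 3 SD on all Matrigel arrays. Over day 6 markers had an unadjusted p under 0.05, all with slopes below 0, and 0 passed after adjustment (lowest adjusted p = 0.369, limma). In 4 of them all of days 6 to 9 lay below all of 12 h to day 4. Over all probes 5.16% had a falling slope at that unadjusted limit, and 0.656% had days 6 to 9 all below. No marker with a slope above 0 reached that unadjusted limit. The part of proliferation in the changes of the members was not tested.

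Levels of epithelial and urothelial markers are given beside the label of the cells. Of these 9 of 11 were above 3 SD on all Matrigel arrays and 10 on both plastic arrays. On each array 83.9% to 86.6% of all probes were above 3 SD, so such counts cannot check the label. Their summed level was between 602 and 1257 SD on Matrigel, against 731 and 775 SD on plastic. Of the 10 tested none was higher and 1 lower on Matrigel, the adhesion protein CDH1, at 6.37 to 21.6 SD on Matrigel (median 18.9), against 33.4 and 39.2 SD on plastic (-1.11, SE 0.38, limma, adjusted p = 0.033). UPK1B was under 3 SD on all Matrigel arrays, against 1.83 and 6.10 SD on plastic. Of 10 markers of other cell types 4 were higher and 2 lower on Matrigel, against 22.8% and 22.4% of all probes. Above 3 SD were 6 of the 10 on all Matrigel arrays and 6 on both plastic arrays. Their sum was between 178 and 216 SD on Matrigel, against 133 and 135 SD on plastic. The 2 lower were COL1A2 (-1.24, SE 0.05, with all 9 Matrigel arrays at the floor) and COL3A1 (-0.56, SE 0.16). The T cell gene CD3E, with the largest increase of this list (2.64, SE 0.13), lay between 26.8 and 37.0 SD on Matrigel, against 5.09 and 5.31 SD on plastic. Such levels thus occur on these arrays for genes that an epithelial line should lack.

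The calls between Matrigel and plastic depended on how the values were made. When levels were rebuilt from the raw intensities with the noise of each array and a regression step, 24 of 49 members were higher and 5 lower, and over all probes 9057 were higher and 2241 lower, against 4901 and 4815 in the deposited values. The median of all probes then moved to 0.49. All 11 members called higher kept their call and lay above that median. In the rebuilt values BRCA1, FANCD2OS, FANCE, RAD50 and XRCC3 had both plastic arrays at the floor, and PALB2, RAD17 and ERCC6L had 1. For these genes the kept call is thus partly or wholly a comparison with the floor. Of the 9 called lower, 6 could be tested, 5 kept their call and 6 lay below the median. RAD9A, RAD23B and PMS2 could not be tested there, since they were under 3 SD on all rebuilt arrays. Their raw intensities were 26.7 to 89.5 on Matrigel and 30.6 and 31.9 on plastic for RAD9A, 36.9 to 71.6 on Matrigel and 23.9 and 29.2 on plastic for RAD23B, and 30.6 to 69.6 on Matrigel and 20.3 and 33.9 on plastic for PMS2, so none of the 3 was lower on Matrigel in the raw values. Raw values are not scaled between arrays, and the raw array medians were higher on Matrigel. After quantile normalization the changes were -0.70 for RAD9A, -0.46 for RAD23B and -0.44 for PMS2. Without the regression step the median of all probes was 1.27, 39 of 50 members were higher and 0 lower, and RAD51D, XRCC6, RAD54B, FANCI, PMS1 and MSH4 turned to increases that still lay below that median. For BCCIP the change was 0.35 in the rebuilt values and 1.31 without the regression step.

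**Figure D5:**
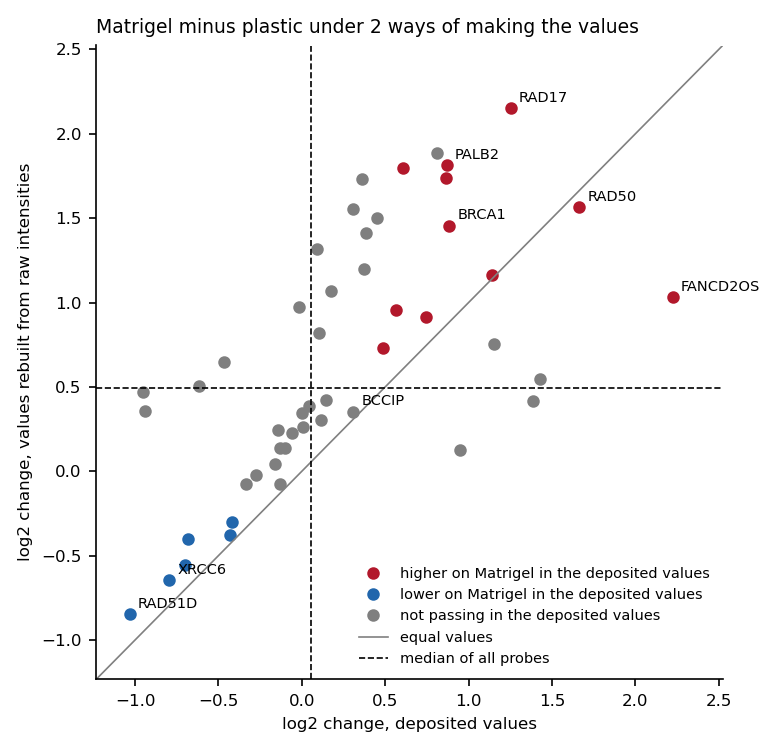
Log2 change, Matrigel minus plastic, of the 49 members tested both ways, in the deposited values (x axis) and in values rebuilt from the raw intensities (y axis), colored by the call in the deposited values, with dashed lines at the median of all probes (0.06 and 0.49). Most points lie above the line of equal values, the members called higher stay above the median of the rebuilt values, and BCCIP lies at 0.31 and 0.35.

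Both plastic arrays mattered for the counts. With the second plastic array alone 9 members were higher and 7 lower, and with the first alone 6 were higher and 6 lower, the single array being assumed to vary like the Matrigel arrays. PALB2, XRCC3, FANCI and MSH4 lost their call in either case, PMS1 with the second array alone, and FANCD2OS, FANCE, XPA and RAD51D with the first alone. XRCC3 also lost its call without the array of day 1, 2, 3, 6 or 9. The trend result did not need plastic, and in each alternative run 0 of the other members passed.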

How the data were processed

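The 11 RNA samples were each measured with Cy3 on arrays of spotted oligonucleotides. The log10 table deposited by the authors holds, for each probe, the log10 of the number of noise SDs by which it exceeded the zero point, after robust regression had brought the arrays to a common scale. The intensity files deposited by the authors hold the scanner signal before these steps. The deposited log10 values were returned to noise SDs, floored at 3 SD and fitted on the log2 scale with limma 3.58.1 (R 4.3.3, lmFit and eBayes with a trend). Benjamini-Hochberg adjustment covered the 21480 probes above 3 SD on at least 2 of 11 arrays. The intensity files served for levels rebuilt with and without regression (noise mode and SD of each array) and for quantile normalization. Tables were made with Python 3.11.15, pandas 2.3.3 and numpy 2.4.6. The fits were tested on simulated data.

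Members and gene lists were chosen with earlier results of these data known. The genes to be named were BCCIP, BRCA1 and PALB2, the 8 largest increases and 8 largest decreases past an adjusted p of 0.05, the 5 highest and 5 lowest slopes and any unadjusted trend p under 0.05, with at most 2 genes in each direction of every other list. ERCC3, RAD51C, MSH4 and the members named as not passing were added after their values were seen. The 3 probes that name several genes were not used. Symbols come from the annotation of the array, and neighboring genes from RefSeq (GRCh38.p14). Alternatives were other ways of making the values, floors of 1 and 5 SD, other filters, array weights, eBayes without a trend, the mean of all probes of a gene, other scales of time and leaving out each array. Precision is limited by the number of arrays.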

Additional observations from a re-analysis of the deposited data

Results flagged for a closer look

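Among 26 sets of 9 Matrigel arrays of named members, 4 held 1 array far from the others by Dixon's ratio. The ratio is set to flag about 1 in 20, or 1.3, in sets chosen without regard to their values. These members were mostly named for their changes or slopes in these same arrays, which single arrays can set. The 4 can therefore not be held against that rate. On day 6 ERCC3 had 44.8 SD, above the 31.6 to 37.3 SD of the other 8 arrays. On day 8 MLH3 had 7.60 SD, below the 15.3 to 30.8 SD of the others. RAD1 had 52.3 SD at 12 h, above 39.9 to 45.3 SD. XRCC2 had 1.14 SD on day 1, below 10.4 to 16.3 SD. The 4 values came from 4 different arrays, and the cause was not tested.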

How the results depend on the processing

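The count of members higher on Matrigel, 11, was 7 after quantile normalization, 24 in the rebuilt values and 39 without regression, and 6 to 13 when single arrays were left out. The count lower, 9, was 11 after quantile normalization, 5 in the rebuilt values and 0 without regression, and 6 to 12 when single arrays were left out. Over all probes 9716 were called, against 15964 without regression, of which 15911 were higher. The median of all probes moved by under 0.1 with quantile normalization and was 0.49 in the rebuilt values and 1.27 without regression. Without regression the changes reversed for FANCI (0.71), MSH4 (0.68), PMS1 (0.55), RAD51D (0.19), RAD54B (0.44) and XRCC6 (0.36). The slope of XRCC3 reversed with array weights (-0.0098), as a difference of days 6 to 9 and earlier days (-0.053) and without the 12 h array (-0.079), and without that array so did those of ERCC6 (-0.063) and XPC (0.080). The slope of BCCIP was 0.26 without the 12 h array and 0.26 to 0.31 when each array was left out. BCCIP, chosen by its trend, was itself not called in the runs that called 0 probes, listed next. Among the other members none passed for trend under any alternative run, with 1 to 5 at an unadjusted p under 0.05. Over all probes the trend called 1, against 79 without regression, and 0 after quantile normalization, with array weights, with eBayes without a trend, with the day as given, for days 6 to 9 against earlier days, and without the array of day 0.5, 2, 3, 6, 7, 8 or 9. No paired analysis was possible because Matrigel arrays carry no replicate number in their labels. The cause of these shifts was not tested. Members near 3 SD, such as OGG1, XPC and PMS2, are limited by the noise floor.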
